A study of Zea mays subsp. mays with 8 samples.

Results

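Head-to-head pairs of transcription start sites were described in maize seedlings. Each pair joins a plus-strand start site to the nearest minus-strand start site at most 500 bp to its left, so that transcription from both sites runs outward, away from the DNA between them. There were 389 such pairs among 75681 start-site clusters, with 53 in the set named B73_R, 118 in B73_S, 82 in Mo17_R and 136 in Mo17_S. Both arms of a pair had a normalized signal of at least 1, and clusters in dense runs of 10 or more dominant (strongest) sites with gaps of at most 2000 bp were left out. Signal, orientation, spacing and the absence of dense runs chose the pairs, so the pairs were chosen by measured values, and these measures are given as a description.

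The assay was cap analysis of gene expression (CAGE), in which capped 5′ ends of RNA are captured and a short tag is read from each. The 4 groups were B73 root, B73 shoot, A632 root and A632 shoot, with 2 libraries in each and 8 in all. B73 and A632 are inbred maize lines, all plants were wild type and untreated, and each library pooled 5 seedlings harvested at 14 days. B73 root libraries had 16 PCR cycles and all others 14, so the cycle number and the B73 root group cannot be told apart.

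Each cluster has 1 deposited signal in a set and none for the single libraries, so no difference below could be set against the spread between replicates and no test was run. B73_R and B73_S were read as B73 root and B73 shoot from their names. Mo17 is a line name found in no label, so Mo17_R and Mo17_S are given under those names and enter no comparison between lines. Tags recovered at dominant sites totalled between 1267305 in B73_R and 3409185 in Mo17_S. Intervals on shares are 95% Wilson intervals and cover counting error only. In the sources used here the genome build is not given, and clusters carry no gene name, so pairs are named by position, and the tissue labels could not be checked against marker genes.

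A start site is fixed by a core promoter, the short stretch of DNA on which RNA polymerase II is assembled, and a core promoter has a direction. Where a pair of core promoters point away from each other across a short stretch, the DNA between them is called a bidirectional promoter. Such promoters can serve a pair of neighbouring genes, or a gene and a noncoding RNA that starts on the opposite strand. In mammals many gene promoters also start short-lived upstream antisense RNAs, whereas in plants such RNAs have been reported to be rarer.

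Few start sites had a head-to-head partner. Of the 6319 plus-strand sites of B73 root that met the signal and run criteria, 0.839% had one (interval 0.642 to 1.1), and of the 7924 of B73 shoot 1.49% (1.25 to 1.78). The share was 1.03% of 7992 sites in Mo17_R (0.827 to 1.27) and 1.52% of 8922 in Mo17_S (1.29 to 1.80). A minus-strand site could serve more than 1 plus-strand site. This was so for 0 pairs of B73 root and 0 of Mo17_R, but for 8 pairs of B73 shoot and 13 of Mo17_S. The share with a partner followed no single order with the strength of the plus-strand site. In B73 root it was 1.01% at a signal of 1 to 5, 0.460% at 20 to 100, and 0 of 257 sites at 100 or more, which allows a share of up to 1.17%. In B73 shoot it was 1.69% at 1 to 5, 1.09% at 20 to 100 and 2.56% at 100 or more (7 of 273). Mo17_R had 1.17% at 1 to 5, 0.799% at 20 to 100, and 0 of 355 sites at 100 or more, which allows up to 0.845%. Mo17_S had 1.56% and 1.18% at the first and second of these steps and 1.72% at 100 or more (6 of 348). The arms of all pairs together held 0.459% of the signal in B73 root and 1.15% in B73 shoot, and 0.522% in Mo17_R and 1.34% in Mo17_S.

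The opposite arrangement, in which transcription from a pair of sites runs inward, was counted for reference with the same limits. Head-to-head pairs outnumbered these facing pairs in each set. There were 53 head-to-head against 14 facing pairs in B73 root, a ratio of 3.79, and 118 against 84 in B73 shoot, a ratio of 1.40. Mo17_R had 82 against 11, a ratio of 7.45, and Mo17_S had 136 against 82, a ratio of 1.66. The facing count thus varied more between sets than the head-to-head count. In the shoot sets some sites belonged to both arrangements, since 23 facing pairs of B73 shoot and 21 of Mo17_S shared an arm with a head-to-head pair, against 1 each in B73 root and Mo17_R.

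Most head-to-head pairs lay more than 150 and up to 300 bp apart. Median spacings were 264 bp for B73 root, 240 bp for B73 shoot, 208 bp for Mo17_R and 219 bp for Mo17_S. Pairs at this spacing made up 62.3% of those in B73 root (interval 48.8 to 74.1) and 54.2% in B73 shoot (45.3 to 63.0), and 58.5% in Mo17_R (47.7 to 68.6) and 53.7% in Mo17_S (45.3 to 61.8). Among facing pairs it was 14.3%, 31%, 36.4% and 35.4% in the same order of sets. Same-strand neighbours within 500 bp gave 34.9%, 33.7%, 35.9% and 34.1%. The plan named medians, quartiles and steps of 50 bp, but not this window of over 150 to 300 bp. The window holds the fullest head-to-head step of each set, so its contrast with the other arrangements is a description.

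Close spacing was uncommon among head-to-head pairs. At most 100 bp separated 1 of 53 pairs in B73 root, 12 of 118 in B73 shoot, 2 of 82 in Mo17_R and 18 of 136 in Mo17_S. Facing pairs were that close in 21.4% of cases in B73 root, 32.1% in B73 shoot, 27.3% in Mo17_R and 28.0% in Mo17_S. The tightest head-to-head pair of B73 shoot, on chromosome 8 with the plus-strand site at 134673035 and the minus-strand site at 134673028, was 7 bp wide, whereas the tightest of B73 root was 66 bp wide, on chromosome 2 at 2550620 and 2550554. The clusters of the chromosome 8 pair overlap, as do those of 5 pairs of B73 shoot in all, 0 of B73 root, 1 of Mo17_R and 7 of Mo17_S, so in these pairs the arms are not separated by DNA free of start sites. At the upper limit, 2, 4, 4 and 6 pairs lay over 450 bp apart in B73 root, B73 shoot, Mo17_R and Mo17_S, and 1, 9, 3 and 8 plus-strand sites had their nearest partner just outside, at over 500 and up to 550 bp.

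**Figure D1:**
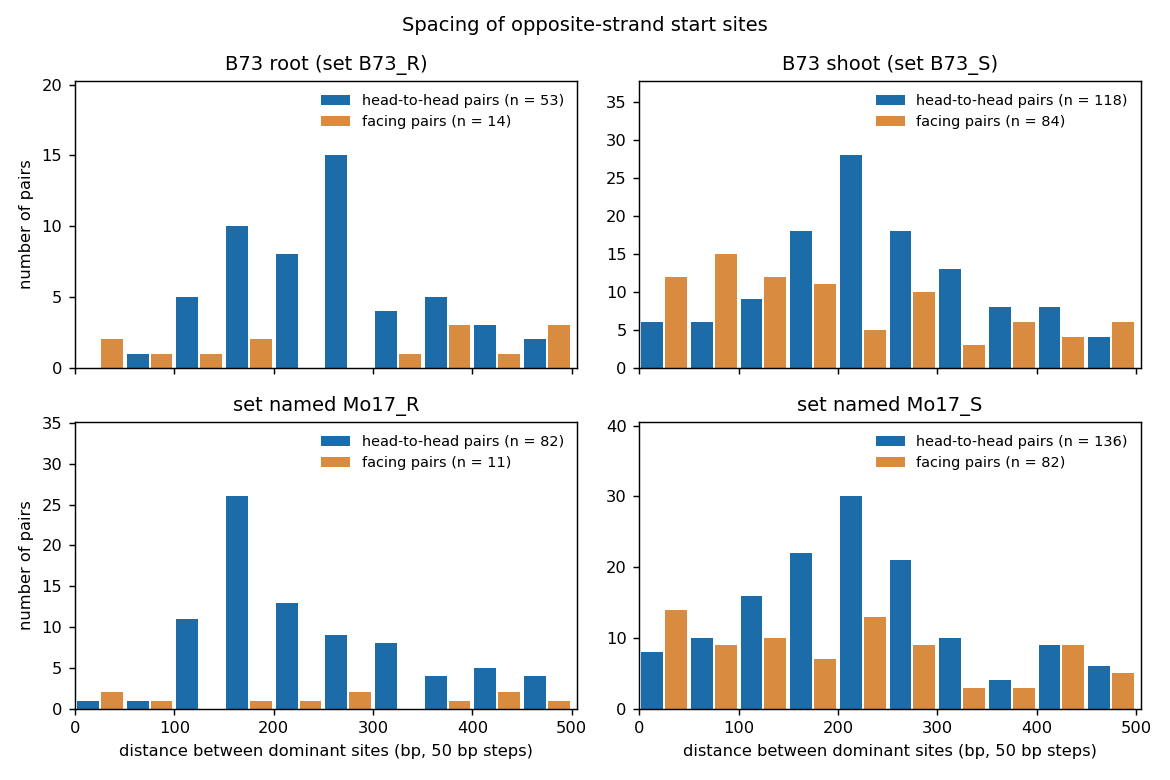
Number of pairs (vertical axis) against the distance between the dominant sites in steps of 50 bp (horizontal axis), in 1 panel per set, for head-to-head and facing pairs. The fullest head-to-head step ended at 300 bp in B73 root with 15 pairs and at 250 bp in B73 shoot with 28, and few head-to-head pairs lay at 100 bp or less.

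In each set a higher share of head-to-head pairs than of facing pairs stood alone. The rule left out dense runs, and the share over all clusters was not computed, so this is a description. No other listed site lay within 1000 bp of 96.2% of pairs in B73 root, 75.4% in B73 shoot, 95.1% in Mo17_R and 75.7% in Mo17_S. For facing pairs the shares were 28.6%, 15.5%, 81.8% and 19.5% in that order of sets. Those of B73 root and Mo17_R rest on 14 and 11 facing pairs. A facing pair that shares an arm with a head-to-head pair has another site nearby by construction, and so does that head-to-head pair. At least 3 other sites lay nearby for 0 head-to-head pairs of B73 root, 15 of B73 shoot, 1 of Mo17_R and 24 of Mo17_S. The closely spaced pairs of B73 shoot and Mo17_S often had company: of the 12 pairs of B73 shoot at 100 bp or less, 8 had another site within 1000 bp, and of the 18 of Mo17_S, 11 did.

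Arms had a somewhat lower median signal than the other clusters that met the criteria. The median over arms was 5.72 in B73 root, against 6.57 over those other clusters, and 6.63 against 8.27 in B73 shoot. It was 7.002 against 7.785 in Mo17_R, and nearly equal in Mo17_S, with 8.20 against 8.41. The weaker arm had a median signal of 2.75 in B73 root and 4.12 in B73 shoot, and 3.25 in Mo17_R and 4.50 in Mo17_S, and the stronger arm 12.6, 13.7, 13.7 and 16.2 in that order. In tags at the dominant site the weaker arm rested on a median of 10 in B73 root and 11.5 in B73 shoot, so the balance of a single pair is imprecise. Both arms reached a signal of 10 in 13.2% of pairs of B73 root, 12.7% of B73 shoot, 14.6% of Mo17_R and 19.1% of Mo17_S. The weakest arm stood at 1.02 in B73 root and 1.40 in B73 shoot, just above the minimum, and lowering that minimum to 0.8 added 4 pairs in B73 root, 0 in B73 shoot, 3 in Mo17_R and 1 in Mo17_S.

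The pairs with the highest weaker arm differed between the B73 tissues. In B73 root the first was on chromosome 6, with a signal of 18.8 at the plus-strand site 141851759 and 21.9 at the minus-strand site 141851519. Next came a pair on chromosome 10 with 47.7 at the plus-strand site 149181313 and 16.3 at the minus-strand site 149181192. The other 3 of the first 5 lay on chromosomes 9, 4 and 7, and all 5 were also pairs in the other 3 sets. In B73 shoot the first was on chromosome 7, with 581.9 at the plus-strand site 5134273 and 177.8 at the minus-strand site 5133896. It was followed by a pair on chromosome 3 with 139.6 at the plus-strand site 187592752 and 52.4 at the minus-strand site 187592551, and by a pair on chromosome 5 with 753.6 at the plus-strand site 55109698 and 46.9 at the minus-strand site 55109443. None of these 3 was a pair in all 4 sets.

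The strands were often unequal, with no shared direction. The stronger arm exceeded the weaker by a median of 3.42-fold in B73 root and 2.93-fold in B73 shoot, and by 2.68-fold in Mo17_R and 2.88-fold in Mo17_S. A difference of at least 4-fold was seen in 45.3% of pairs of B73 root (interval 32.7 to 58.5) and 34.7% of B73 shoot (26.8 to 43.7), and in 41.5% of Mo17_R (31.4 to 52.3) and 36.8% of Mo17_S (29.1 to 45.1). From recovered tags the B73 root share was 28.3%. The plus-strand arm was the stronger in 37.7% of pairs of B73 root (25.9 to 51.2), 54.2% of B73 shoot (45.3 to 63.0), 46.3% of Mo17_R (36.0 to 57.1) and 50% of Mo17_S (41.7 to 58.3), and each interval holds an even split. Across pairs, plus-strand and minus-strand signals were nearly unrelated, with a Spearman coefficient of 0.041 over 53 pairs of B73 root and −0.128 over 118 of B73 shoot. Both signals come from the same libraries and share the minimum of 1.

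The most lopsided pairs spanned wide ratios. In B73 shoot a pair on chromosome 5 had 367.5 at the plus-strand site 168712626 and 4.14 at the minus-strand site 168712199, an 88.8-fold ratio. In Mo17_S the same sites had 695.8 and 3.21. In B73 shoot that minus-strand site also served the plus-strand sites 168712438, 168712488 and 168712505. The nearest of them, at 239 bp, had 13.7, while the named pair was 427 bp wide. Toward the minus strand, a pair on chromosome 5 in B73 root had 1.02 at the plus-strand site 7531888 and 96.5 at the minus-strand site 7531723. The widest ratio of any set, 586.7-fold, was in Mo17_R on chromosome 5, with 1.12 at the plus-strand site 19461421 and 654.6 at the minus-strand site 19460964.

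**Figure D2:**
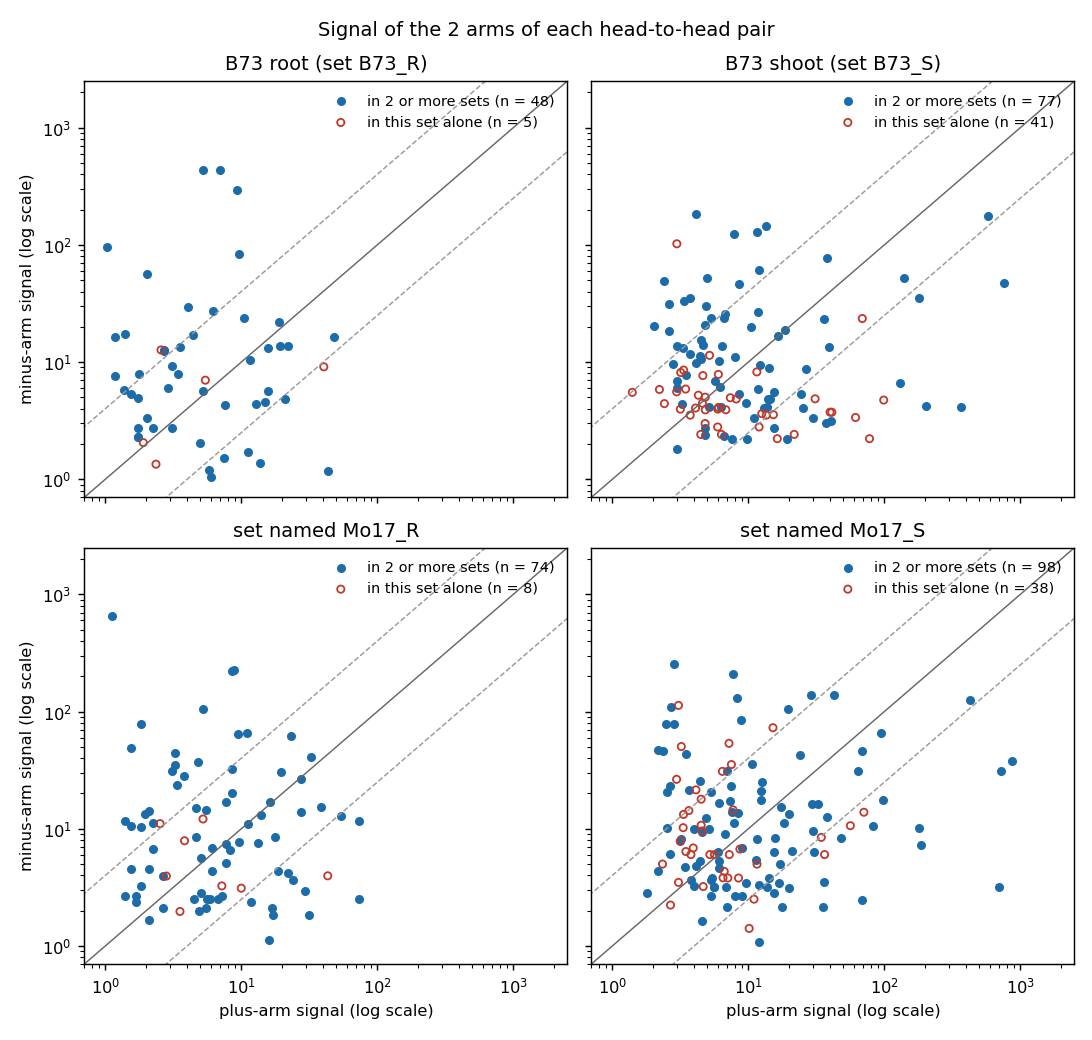
Signal of the plus-strand arm (horizontal) and of the minus-strand arm (vertical) for each head-to-head pair, both on log axes, in 1 panel per set. Filled points are pairs found in at least 2 sets, open points pairs of that set alone, and dashed lines mark a 4-fold difference; points lie on both sides of equality in each set.

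In each set a lower share of arms than of other clusters was sharp. Sharp clusters were those with an interquantile width, from the 10th to the 90th percentile of signal, of 10 bp or less. This held for 47.2% of arms of B73 root (interval 37.9 to 56.6) against 53.7% of other clusters (52.8 to 54.6), and for 36.4% of arms of B73 shoot (30.4 to 42.7) against 43.3% (42.6 to 44.1). Mo17_R had 40.9% (33.6 to 48.5) against 47.5% (46.7 to 48.3), and Mo17_S 38.9% (33.2 to 45.0) against 43.9% (43.1 to 44.6). In B73 shoot the share of other clusters lay above the arms' interval, though the intervals' edges overlapped, and in the other 3 sets it lay within the arms' interval. At a width of 5 bp or less the shares were 36.8% of arms against 44.4% of other clusters in B73 root, 26.8% against 33.5% in B73 shoot, 28.7% against 37.4% in Mo17_R and 25.6% against 33.5% in Mo17_S. There the intervals of Mo17_R (22.3 to 36.0 against 36.7 to 38.2) and Mo17_S (20.7 to 31.2 against 32.8 to 34.2) did not overlap. At 20 bp or less the shares were closer, with 57.5% against 60.2% in B73 root and 49.4% against 50.5% in B73 shoot. Mo17_R had 50.6% against 54.5%, and Mo17_S 49.2% against 51.0%. Within pairs the weaker arm was sharp in 50.9% of B73 root pairs and 41.5% of B73 shoot pairs, and the stronger arm in 43.4% and 33.1%. Median tags at the dominant site were 10 and 11.5 for the weaker arm and 31 and 34.5 for the stronger. The part of tag number in this difference was not tested.

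By overlap of clusters, most pairs of B73 root were pairs in B73 shoot as well. Both arms overlapped a pair of the other set on the same strands for 44 of 53 root pairs (83.0%, interval 70.8 to 90.8) and 44 of 118 shoot pairs (37.3%, 29.1 to 46.3). With both dominant sites within 10 bp, the shares were 35.8% of root pairs and 16.1% of shoot pairs. Taken singly, 94.3% of root arms were listed in shoot, against 87.1% of all root clusters that met the criteria. Between Mo17_R and Mo17_S 71 pairs recurred, which was 86.6% of the 82 in Mo17_R (77.6 to 92.3) and 52.2% of the 136 in Mo17_S (43.9 to 60.4). Facing pairs recurred for 8 of 14 in B73 root (57.1%, 32.6 to 78.6) and 8 of 84 in B73 shoot (9.52%, 4.91 to 17.7). Same-strand neighbours recurred in 32.3% of B73 root cases and 16.9% of B73 shoot cases. The B73 root set has fewer clusters and tags than the B73 shoot set, and the part of depth in these shares was not tested.

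Of the 118 pairs of B73 shoot, 74 were no pair in B73 root. For 45 of them 1 arm was listed in root, for 17 neither arm, and for 12 both arms, of which 11 had an arm below the signal minimum. Of all arms of B73 shoot 68.0% were listed in root, against 75.5% of all shoot clusters that met the criteria. Recurrence in root was 0 of 12 shoot pairs at 100 bp or less (interval 0 to 24.2%), 5 of 9 at over 100 to 150 bp, 29 of 64 at over 150 to 300 bp (45.3%) and 10 of 33 above that (30.3%), with no steady order. By the weaker arm's signal it was 36.7% at 1 to 3, 31.5% at 3 to 10 and 66.7% at 10 or more (10 of 15). Of shoot pairs with no other site within 1000 bp, 43 of 89 recurred (48.3%), and of those with other sites 1 of 29 (3.45%). Spacing and crowding move together in these pairs, and the part of each in this difference was not tested.

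Joining overlapping pairs across the sets gave 202 loci. Of these 92 were seen in 1 set (45.5%), 64 in 2 (31.7%), 15 in 3 (7.43%) and 31 in all 4 (15.3%). Facing pairs gave 152 loci, of which 120 were in 1 set (78.9%) and 2 in all 4 (1.32%). Loci seen in sets named S alone numbered 102, made up of 41 in B73_S alone, 38 in Mo17_S alone and 23 in both. Pairs of loci seen in all 4 sets had no other listed site within 1000 bp in all 124 cases, against 54 of 92 pairs of loci seen in 1 set (58.7%).

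**Figure D3:**
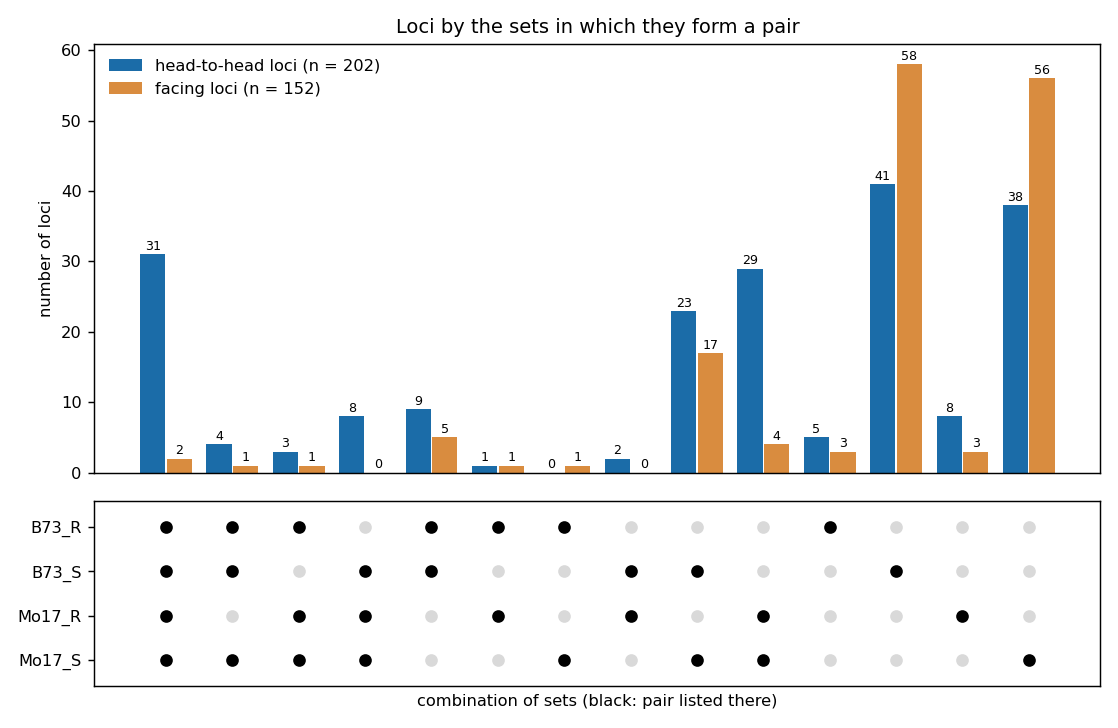
Number of loci (vertical axis) for each combination of sets (black dots below the bars), for head-to-head and facing pairs. The combination of all 4 sets held 31 head-to-head and 2 facing loci.

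The 31 loci seen in all 4 sets were chosen by having the head-to-head arrangement in each. Their median spacing was 231 bp, with a range of 115 to 438 bp, and 21 of them lay at over 150 to 300 bp. Within a locus the spacing varied over the sets by a median of 20 bp, by at most 10 bp at 12 loci and by more than 50 bp at 10, with a highest value of 140 bp. Both dominant sites were the same in all 4 sets at 1 locus. This was the chromosome 10 pair at 149181313 and 149181192, with a spacing of 121 bp throughout. Its plus-strand and minus-strand signals were 47.7 and 16.3 in B73 root, 39.4 and 13.4 in B73 shoot, 54.0 and 12.9 in Mo17_R, and 64.4 and 31 in Mo17_S. By signal the plus-strand arm was thus the stronger in each set. In tags at the dominant site the order was the other way in Mo17_S, with 160 on the plus strand and 189 on the minus strand.

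The next 4 loci by their lowest arm differed in which strand led. On chromosome 4, at the plus-strand site 241794623 and the minus-strand site 241794272, the plus-strand and minus-strand signals were 19.2 and 13.6 in B73 root, 14.2 and 8.88 in B73 shoot, 27.3 and 26.5 in Mo17_R, and 37.7 and 12.7 in Mo17_S, so the plus-strand arm led throughout. On chromosome 2, at the plus-strand site 234409786 and the minus-strand site 234409350, the plus-strand and minus-strand signals were 9.56 and 83.7 in B73 root, 12 and 61.0 in B73 shoot, 11.0 and 66.2 in Mo17_R, and 19.5 and 104.8 in Mo17_S. A further chromosome 2 locus, at 50613972 and 50613572, had 10.4 and 24 in B73 root, 11.9 and 26.7 in B73 shoot, 32.4 and 40.9 in Mo17_R, and 24 and 42.8 in Mo17_S, so the minus-strand arm led throughout at both. At the chromosome 7 locus at 169308627 and 169308309 the values were 15.8 and 13.2 in B73 root, 18.6 and 18.7 in B73 shoot, 27.4 and 13.9 in Mo17_R, and 12.5 and 17.6 in Mo17_S, so the stronger arm differed between sets.

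By signal the same arm was the stronger in all 4 sets at 18 of the 31 loci, the plus-strand arm at 6 and the minus-strand arm at 12. Tags at the dominant site did not always give the same stronger arm. At 7 loci the arms differed by at least 4-fold in every set, always toward the same arm, and 2 of these 7, on chromosomes 3 and 10, had nearly equal tag numbers on their minus-strand arms, so they may not be independent. Of the 44 pairs shared by B73 root and B73 shoot, 30 had the same stronger arm (68.2%, interval 53.4 to 80.0), and so did all 14 whose arms differed by at least 4-fold in both tissues. The log2 ratio of plus-strand over minus-strand signal had a Pearson coefficient of 0.794 and a Spearman coefficient of 0.781 between the tissues over these 44 pairs. Among the 31 loci, the widest shift in this log2 ratio over the 4 sets was at the chromosome 5 locus at 7531888 and 7531723. The ratio was −6.56 in B73 root, −5.49 in B73 shoot, 0.61 in Mo17_R and 1.49 in Mo17_S. The plus-strand arm of B73 root stood at 1.02 on 4 tags, near the signal minimum. That of B73 shoot had 4.10 on 7 tags, at a different dominant site. The minus-strand signal was 96.5, 184.7, 5.07 and 3.41 in that order of sets. These values are given by set and are not a comparison between lines.

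**Figure D4:**
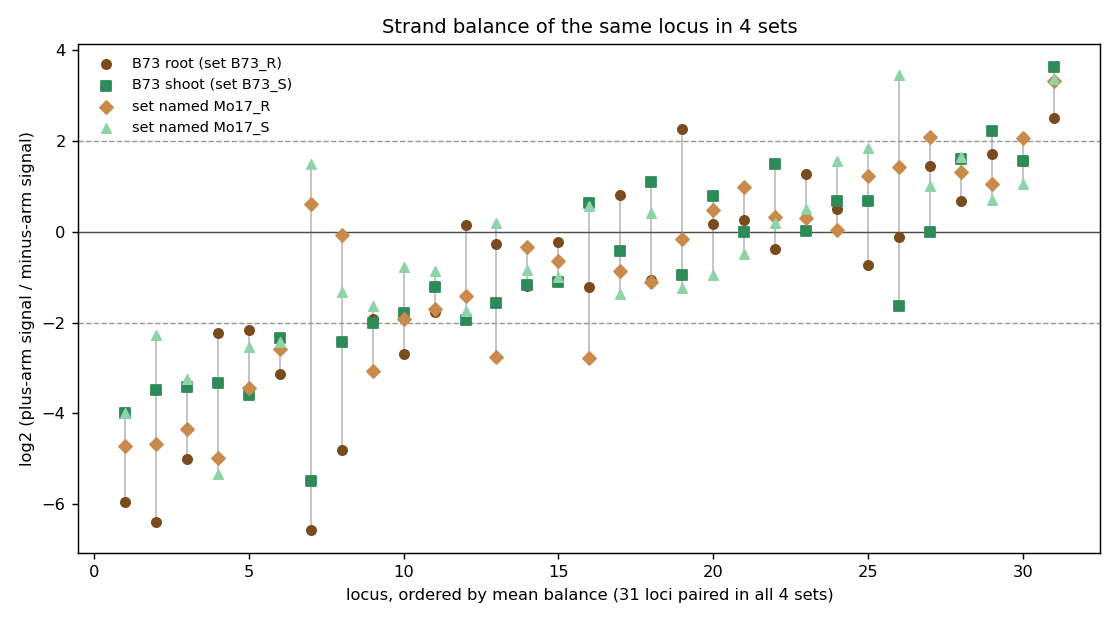
Log2 ratio of plus-strand over minus-strand signal at the 31 head-to-head loci seen in all 4 sets, with 1 point per set and locus, loci ordered by their mean ratio, and dashed lines at a 4-fold difference. The same arm was the stronger in all 4 sets at 18 loci, and the ratio ranged over the sets by a median of 1.88.

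Change between B73 root and B73 shoot was read for 58 pairs whose arms each overlapped exactly 1 cluster of the other tissue. Differences are root minus shoot on a log2(signal + 1) scale, on which weak arms appear to change less than they do, and a 4-fold difference with a signal of at least 1 in the higher tissue was called. Of the 116 arms 14 were called (12.1%), against 19.8% of all 12356 clusters matched in this way. The matched clusters were drawn from all listed clusters, with those in dense runs or under the signal minimum kept. They were thus not chosen as the arms were. On the log2(signal + 1) scale 1 arm was higher in root (0.862%, against 4.31% of all clusters) and 13 were higher in shoot (11.2%, against 15.5%). After quantile normalization 1 arm was higher in root (0.862%, against 7.83%) and 6 in shoot (5.17%, against 8.9%). The order turned with recovered tags, which count the dominant site alone and were each scaled to their set. By these tags 8 arms were higher in root (6.90%, against 11.9% of all clusters) and 6 in shoot (5.17%, against 8.91%). The median difference of all matched clusters was −0.50 on signal, 0.46 on recovered tags and 0.13 after quantile normalization. Directions are thus relative to the measure and the scaling. In these whole-tissue samples, fewer cells of a type and less RNA per cell cannot be told apart.

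The way pairs entered was uneven. Of the 58 pairs 44 were pairs in both tissues, 12 in shoot alone and 2 in root alone, and a pair that entered through shoot alone could have root arms under the signal minimum. Both arms differed past 4-fold in 4 of the 58 pairs, each time lower in root, and in 0 pairs in opposite directions past that size. At that size both sites moved the same way in 1 of 14 facing pairs and 4 of 222 same-strand neighbours. Of the 4 head-to-head pairs, 2 were pairs in shoot alone, with both root arms under a signal of 1. A further 1 was a pair in root alone and 1 in both tissues. Among the 88 arms of the 44 pairs of both tissues, 0 were called higher in root and 7 higher in shoot. Of all matched clusters 4.31% were called higher in root and 15.5% higher in shoot. Both arms of the 44 pairs met the signal minimum in both tissues, which the matched clusters did not have to do. This limits how often those arms could be called, so the shares are not like for like. On chromosome 7 the plus-strand site at 5134274 had 0.888 in root and 581.9 in shoot, and the minus-strand site at 5133898 had 0.417 and 177.8, for log2 differences of −8.27 and −6.98. The root values rest on 4 and 2 tags at the dominant sites. Sites here are given at their root positions. On chromosome 6 the plus-strand site at 164175195 had 1.17 in root and 12.6 in shoot, and the minus-strand site at 164174811 had 16.2 and 1488. On chromosome 1 the plus-strand site at 71344958 had 43.6 in root and 181.2 in shoot, and the minus-strand site at 71344629 had 1.19 and 35.6. The fourth pair, on chromosome 6 at 7157455 and 7157220, had 0.575 in root and 5.71 in shoot on the plus strand and 0.871 and 6.86 on the minus strand. The count depended on the scale. It was 2 from recovered tags, where 20.8% of all clusters were past 4-fold, 1 after quantile normalization (16.7% of all clusters) and 1 with a pseudocount of 5 (9.87%). At 2-fold it was 9, where 47.8% of all clusters were past that size. These shares are of single clusters that differed in either direction.

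In the other pairs both arms did not pass the called size together. In 6 pairs 1 arm was called, and in 48 neither. The single arm called higher in root was the plus-strand site at 9630305 on chromosome 8, with 46.3 in root and 2.97 in shoot, while its minus-strand partner had 4.92 in root and 5.57 in shoot. These sites were a pair in shoot alone, where the dominant plus-strand site was at 9630226. In root they lay 602 bp apart, outside the spacing limit. Both arms lay on the same side of the median of all matched clusters in 30 of 58 pairs (51.7%, interval 39.2 to 64.1). The same was true of 9 of 14 facing pairs (64.3%) and 129 of 222 same-strand neighbours (58.1%). The Pearson coefficient between the differences of the 2 arms was 0.545 over 58 pairs and the Spearman coefficient 0.255. Without the 2 pairs farthest from the median of the plus-strand difference, Pearson's coefficient was 0.319 and Spearman's 0.216 over 56 pairs. Without the pairs in which both arms were called, Pearson's coefficient was 0.112 over 54 pairs. Over the 44 pairs of both tissues Pearson's coefficient was 0.197 and Spearman's 0.109. Over the 12 of shoot alone, which met the signal minimum in shoot but not as pairs in root, they were 0.797 and 0.441. The arms of a pair share their libraries, and these coefficients are descriptions.

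Where both arms were higher in root, the differences stayed below the called size. The first by the smaller arm was the chromosome 6 pair at 141851759 and 141851519, with 18.8 in root and 6.45 in shoot on the plus strand and 21.9 and 13.8 on the minus strand, for differences of 1.41 and 0.63. Some arms moved apart. On chromosome 3 the plus-strand site at 230529903 had 5.19 in root and 11.5 in shoot, a difference of −1.02, while the minus-strand site at 230529628 had 437.7 and 129.6, a difference of 1.75. Tags at this minus-strand site nearly equalled those of a minus-strand arm on chromosome 10, at 2659363, with 1233 and 1219 in root and 233 at each in shoot, and whether the loci share tags was not tested. On chromosome 5 the plus-strand site at 74651630 had 11.5 in root and 6.78 in shoot, a difference of 0.69, while the minus-strand site at 74651359 had 10.5 and 25.9, a difference of −1.23.

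**Figure D5:**
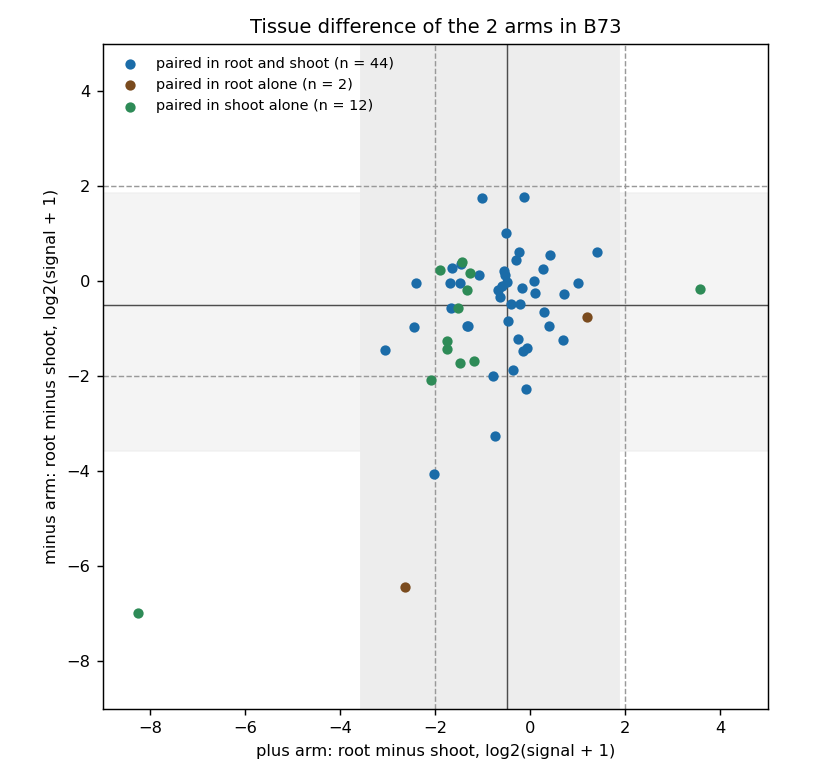
Root minus shoot difference of log2(signal + 1) of the plus-strand arm (horizontal) and of the minus-strand arm (vertical) for 58 B73 pairs, coloured by whether they were pairs in both tissues (44), in root alone (2) or in shoot alone (12). Solid lines mark the median of all matched clusters (−0.50), dashed lines a 4-fold difference, and grey the 5th to 95th percentile of all matched clusters; on this scale 4 pairs lie past 4-fold in both arms, all lower in root, against 2 from recovered tags.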

How the data were processed

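CAGE tags from 8 libraries were reduced by the authors to start-site clusters in 4 named sets. Per the submitters' processing notes, Bowtie2 2.0.4 was used. Genome build, clustering tool and treatment of tags with several matches were, in the sources used here, not given. Within each set the deposited signal follows a power law of the tag number. The deposited interquantile width is in bp, and the deposited shape score is not named in the files. Inverting the power law gave whole tag numbers within 0.01 at dominant sites; tags carry no molecular identifiers. There were 0 other columns of values per sample.

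Pairs, facing pairs and same-strand neighbours were found by position. Clusters were matched between sets by an overlap of at least 1 bp on the same strand. The members and rules were chosen with earlier results of these data known. Pairs named are the highest by weaker arm, the tightest, widest and most lopsided of each set, the strongest by lowest arm among loci in 4 sets, and the largest joint and opposite changes in B73; the text prints some of them. The arm called higher in root and the locus with the widest shift in balance were named after their values were seen. The pairing was tested on simulated data. Alternatives changed the signal minimum, spacing, runs, fold, width, pseudocount, scaling and match. Sequences and genes were not analysed here. Software was matplotlib 3.10.9, scipy 1.17.1, pandas 2.3.3, numpy 2.4.6 and Python 3.11.15.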

Additional observations from a re-analysis of the deposited data

Results flagged for a closer look

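Dense runs of start sites, which were left out of the pairs described, held many further head-to-head neighbours. Pairs with at least 1 arm in such a run numbered 1 in B73_R, 769 in B73_S, 6 in Mo17_R and 596 in Mo17_S. They stand out as signal in clusters left out of the pairs described, and they enter just the alternative that keeps dense runs. The sets Mo17_R and Mo17_S, whose line name is in no label and which entered no comparison between lines, held 82 and 136 pairs.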

How the results depend on the processing

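Of 90 alternative values, 38 stayed close to the value reported, 49 moved and 3 changed direction; the causes were not tested except where fewer or more sites entered by construction. Values are in the order B73_R, B73_S, Mo17_R, Mo17_S. A signal minimum of 5 gave 16, 39, 29 and 63 pairs with median spacings of 293, 263, 261 and 252 bp, and 24.1% of Mo17_R pairs with arms 4-fold apart. A limit of 250 bp gave 24, 67, 52 and 86 pairs. Keeping dense runs gave 887 pairs in B73_S and 732 in Mo17_S, with a median spacing of 248 bp in Mo17_S. Arms were at least 2-fold apart in 69.8%, 69.5%, 67.1% and 66.2% of pairs, and 8-fold in 18.9%, 21.2%, 19.5% and 18.4%; recovered tags gave 28.3% at 4-fold in B73_R. With sharp set at 5 bp, 36.8%, 26.8%, 28.7% and 25.6% of arms were sharp, against 44.4%, 33.5%, 37.4% and 33.5% of other clusters, and at 20 bp 57.5%, 49.4%, 50.6% and 49.2%, against 60.2%, 50.5%, 54.5% and 51.0%. Pairs with both arms called between B73 root and shoot numbered 4, but 1 with a pseudocount of 5, 2 from recovered tags, 1 after quantile normalization and 9 at 2-fold. Arms called higher in root minus arms called higher in shoot were −12, but 2 from recovered tags, which is the opposite direction, −24 with a pseudocount of 0.1, −5 with one of 5, −5 after quantile normalization and −35 at 2-fold. The median root minus shoot difference of the arms was −0.52 on the log2 scale, but 0.49 from recovered tags and 0.14 after quantile normalization, both of the opposite sign, and −0.28 with a pseudocount of 5. With both dominant sites within 10 bp, recurrence was 35.8% for B73_R in B73_S, 16.1% for B73_S in B73_R, 57.3% for Mo17_R in Mo17_S and 34.6% for Mo17_S in Mo17_R. Within 50 bp it was 69.8% for B73_R in B73_S and 76.8% for Mo17_R in Mo17_S. With both arms listed at any signal, 47.5% of B73_S pairs recurred in B73_R. No paired analysis was possible because the columns carry no library or replicate number, and leaving out replicates was not run for the same reason.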

Other observations

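Chromosome 5 carried more of the B73 pairs than its share of clusters. It held 12 of 53 pairs of B73 root (22.6%), against 11.9% of the clusters that met the criteria, and 24 of 118 of B73 shoot (20.3%), against 12%. In Mo17_R it held 12.2% and in Mo17_S 16.9%, against 12% of clusters in each. Chromosome 5 was singled out after the counts were seen. Its B73 shoot pairs include those of the plus-strand sites 168712438, 168712488, 168712505 and 168712626, which share a minus-strand site.

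A pair of loci seen in all 4 sets had minus-strand arms of nearly equal tag numbers at the dominant site. The arm at 2659363 on chromosome 10 had 1219 tags in B73 root, 233 in B73 shoot, 736 in Mo17_R and 411 in Mo17_S, and the arm at 230529628 on chromosome 3 had 1233, 233, 737 and 457. The likeness was noticed by eye and then ranked 3 ways over the 465 combinations of the 31 loci. By the minus-strand arm this combination was the closest, with a largest ratio of 1.11 over the sets, against 1.20 for the next. By both arms it ranked 11, and by the plus-strand arm 101, with a largest ratio of 2.73 on that arm. Whether tags with several matches in the genome are shared between these loci was not tested, and the values of the chromosome 3 and chromosome 10 loci may not be independent.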
